A study of Mus musculus with 6 samples.

Results

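Chemokine ligands are the subject here: the 10 genes *Ccl3*, *Ccl4*, *Ccl5*, *Ccl6*, *Ccl9*, *Ccl17*, *Ccl22*, *Cxcl9*, *Cxcl10* and *Cxcl16*, taken by symbol from the 23420 genes of the count table. Of the 10, 9 had enough reads for a test, and *Cxcl9*, with 5 counts over all libraries, did not. RNA was sequenced from mouse splenic B cells of *Ahr*+/+ and *Ahr*-/- animals, with 3 libraries per genotype and 1 mouse per library. *Ahr* encodes AhR (aryl hydrocarbon receptor), which binds small aromatic ligands and regulates transcription, and the comparison asks how activated B cells differ without it. Every culture, of either genotype, received 10 μg/ml α-IgM, which engages the B-cell receptor (BCR), and IL-4 at 20 ng/ml over 8 h of culture, with the AhR ligand FICZ at 250 nM during the final 4 h. No unstimulated or FICZ-free culture was analysed here, so the values describe activated, ligand-exposed cells. The labels give the strain as C57Bl/6J; the *Ahr*-/- mice carry the tm1Bra allele in every cell, on a B6.129 background, and the animals were adult and matched for age and gender unless stated otherwise. B cells were purified from spleen with the EasySep isolation kit, and a small share of the purified cells was not B cells.

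Chemokines are small secreted proteins that draw leukocytes along a gradient by binding G-protein-coupled receptors. They are named for the spacing of a pair of cysteines near the N-terminus, adjacent in CC chemokines and separated by 1 residue in CXC chemokines. CCL3, CCL4 and CCL5 are inflammatory chemokines that attract T cells and monocytes, and BCR-stimulated B cells are a known source of CCL3 and CCL4. CCL17 and CCL22 are the ligands of CCR4 on activated T cells and are known to be induced by IL-4. CCL6 and CCL9 are mouse chemokines that bind CCR1 and are mostly known from myeloid cells. CXCL9 and CXCL10 are interferon-γ-induced ligands of CXCR3, and CXCL16 is a membrane-bound ligand of CXCR6.

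The coding sequence around the cysteine pair is shown for 9 of the 10 genes because it sets apart the 2 classes that the names refer to. Each line is read 5′ to 3′ from the GENCODE annotation of GRCm38, with the codons of the pair in capitals.
Ccl4: acttccTGCTGTttctct
Ccl5: actcccTGCTGCtttgcc
Ccl6: tcagacTGCTGCttctct
Ccl9: tcagatTGCTGCctgtcc
Ccl17: cgagagTGCTGCctggat
Ccl22: agtatcTGCTGCcaggac
Cxcl9: gcacgaTGCtccTGCatcagc
Cxcl10: gtccgcTGCaacTGCatccat
Cxcl16: ggaagtTGTtctTGTgatcgt

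The 6 CC genes shown had the cysteine codons side by side and the 3 CXC genes had a codon between them. In the same annotation, 5 of the CC genes lay within a cluster on chromosome 11, namely *Ccl5* (chr11:83525778-83530518), *Ccl9* (chr11:83572919-83578636), *Ccl6* (chr11:83587882-83593087), *Ccl3* (chr11:83647844-83649355) and *Ccl4* (chr11:83662584-83664683). *Ccl22* (chr8:94745590-94751699) and *Ccl17* (chr8:94810453-94812036) were neighbours on chromosome 8. *Cxcl9* (chr5:92321347-92328079) and *Cxcl10* (chr5:92346638-92348889) were neighbours on chromosome 5, and *Cxcl16* (chr11:70453983-70459984) lay apart on chromosome 11. The coding sequences of *Ccl3* and *Ccl4* were 69.6% identical and those of *Ccl6* and *Ccl9* 69.3%. No stretch of 50 bases in the transcripts of *Ccl3*, *Ccl4*, *Ccl5*, *Ccl6*, *Ccl17* or *Ccl22* occurred in the transcripts of another gene on either strand. Such stretches made up 16.9% of *Cxcl16*, which overlaps *Zmynd15* on the opposite strand, 3.59% of *Cxcl10*, which overlaps *Art3*, 1.97% of *Ccl9* and 0.472% of *Cxcl9*. *Ccl6* overlaps *E230016K23Rik* on the opposite strand, without a shared stretch in the transcripts. In the RefSeq annotation of GRCm38.p6, *Ccl5* overlaps *Gm32650*, and the *Ccl4* locus starts further upstream and overlaps *Ccl3* on the opposite strand. The library kit marks strand, but no source used here says if the counting took it into account, so reads of these overlapping genes may have been left out or assigned to either one.

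The sequences before the starts of *Ccl17* and *Ccl22* are shown because these neighbouring CCR4 ligands were both higher in *Ahr*-/- cultures with the smallest adjusted p-values of the 10 genes. They are taken from the RefSeq promoter table for GRCm38.p6, plus strand, up to the promoter start. For *Ccl17* that start is also the GENCODE start. The RefSeq *Ccl17* gene begins earlier, at chr8:94809380, so the printed window lies within it. For *Ccl22* the sequence stops at the earlier GENCODE start.
Ccl17 (chr8:94810203-94810452): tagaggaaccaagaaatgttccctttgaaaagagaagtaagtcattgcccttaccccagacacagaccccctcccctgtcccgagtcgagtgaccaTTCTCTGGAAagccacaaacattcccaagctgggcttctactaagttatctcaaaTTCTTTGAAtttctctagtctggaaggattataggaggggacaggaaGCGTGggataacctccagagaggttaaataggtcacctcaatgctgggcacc
Ccl22 (chr8:94745434-94745589): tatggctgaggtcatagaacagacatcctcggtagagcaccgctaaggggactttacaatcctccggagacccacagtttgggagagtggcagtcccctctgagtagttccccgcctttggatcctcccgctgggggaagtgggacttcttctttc

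Capitals mark matches, on either strand, to 3 of 4 motifs searched. These were GCGTG (the core to which AhR and its partner ARNT are known to bind), TTCNNNGAA (the general STAT motif), TTCNNNNGAA (the STAT6 motif used downstream of IL-4) and GGGANNTTCC (an NF-κB motif). The *Ccl17* window held the STAT6 motif 154 bases before the GENCODE start, the general STAT motif 99 bases before it and GCGTG 52 bases before it. Neither the printed *Ccl22* stretch nor the full 250 bases before its RefSeq start held any of the 4. Of 32851 RefSeq windows of the same 250 bases, 28.2% held GCGTG, 7.02% the general STAT motif, 5.85% the STAT6 motif and 1.21% the NF-κB motif. Promoter sequence was at hand for 7 of the 10 genes, without *Ccl4*, *Ccl5* and *Cxcl16*. *Cxcl10* held GCGTG on the other strand and an NF-κB motif, and *Ccl3*, *Ccl6*, *Ccl9* and *Cxcl9* held none of the 4. A match is a description of the letters and was not tested as a binding site.

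Library totals ranged from 22095096 to 53648787 counts, and 3 counts, taken as the smallest level that can be told from 0, corresponded to between 0.0555 and 0.134 CPM, the count scaled by library size, which covers counting error only. Normalized counts below are raw counts divided by the library's TMM-scaled size relative to the mean library, and all tests are edgeR's quasi-likelihood test with Benjamini-Hochberg adjustment over the 13682 genes with at least 10 counts. These p-values weigh the difference against the spread between the 3 mice of each genotype, which edgeR moderates with information from all genes tested. *Cyp1a1*, the classical AhR target, was at 5246 ± 242 normalized counts in wild-type but 5.36 ± 2.20 in *Ahr*-/- libraries (SD, n = 3 each), in the direction the labels give. *Ahr* itself had 13175 ± 682 against 9174 ± 472 normalized counts, a sum over all exons that cannot tell transcripts with the targeted exon from those without it. Y-linked *Ddx3y* had between 5847 and 7410 normalized counts in the 6 libraries and *Xist* between 5.03 and 10.3, so Y-linked transcripts were present in all libraries.

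Of the 9 chemokine ligands tested, 7 changed at an adjusted p-value under 0.05. *Ccl5*, *Ccl6*, *Ccl9*, *Ccl17*, *Ccl22* and *Cxcl16* were higher in *Ahr*-/- B-cell cultures, by 1.76-fold to 6.16-fold, and *Ccl3* was 1.37-fold lower. *Ccl4* and *Cxcl10* did not pass the test. Most of these ligands are also made by cells other than B cells, and in bulk RNA a larger number of such cells and more RNA per cell cannot be told apart. Over all genes tested, 17.9% passed the same threshold, 9.79% as higher and 8.13% as lower in *Ahr*-/- cells. The median log2 fold change was 1.21 over the 9 ligands and 0.0022 over all genes. For the 6 that rose, every *Ahr*-/- library lay above every *Ahr*+/+ library, which held for 17.7% of all genes tested. For *Ccl3* every *Ahr*-/- library lay below, which held for 15.8% of all genes. The 2-sided exact permutation test over libraries gave p = 0.1 for each of the 7, the smallest value that 3 libraries against 3 allow.

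**Figure D1:**
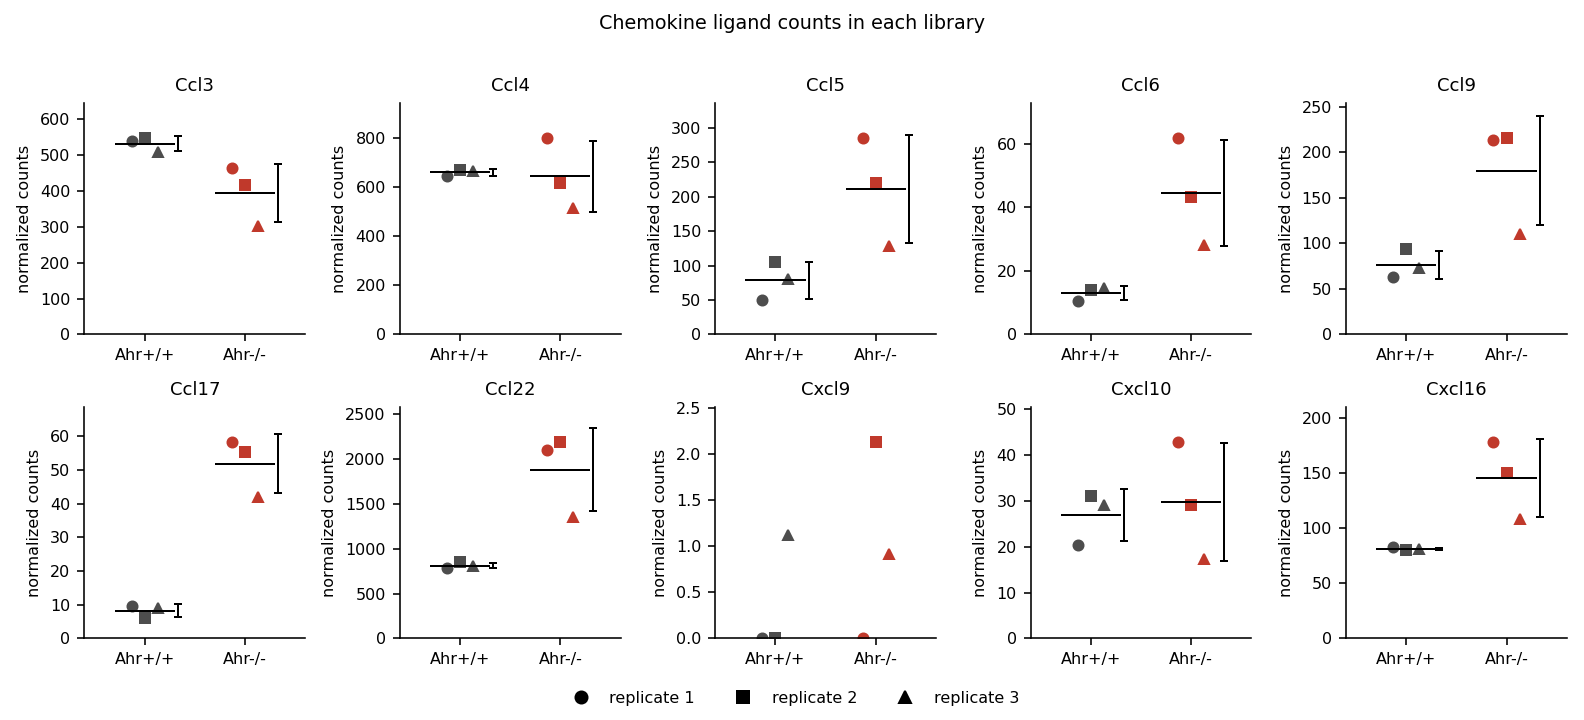
Normalized counts of each of the 10 chemokine ligands in each library (y axis, linear from 0), grouped by genotype, with the marker shape giving the replicate, the line the mean and the bar the SD of 3 libraries; *Cxcl9* has points only. The *Ahr*-/- libraries of *Ccl17* sit between 41.9 and 58.4, all above the *Ahr*+/+ libraries at 6.04 to 9.71, while those of *Ccl4* lie on either side of the *Ahr*+/+ libraries.

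Among the CCR4 ligands, *Ccl17* showed the largest fold change of the 10. Its normalized counts were 9.71, 6.04 and 8.98 in wild-type and 58.4, 55.4 and 41.9 in *Ahr*-/- libraries. All *Ahr*-/- libraries were thus above all *Ahr*+/+ libraries, at a low level in the wild type. The log2 fold change was 2.62 (standard error 0.28, 95% interval 2.00 to 3.24, adjusted p = 3.15e-05). *Ccl22*, the other CCR4 ligand, was far more abundant, with 787, 848 and 802 normalized counts in *Ahr*+/+ and 2104, 2192 and 1354 in *Ahr*-/- libraries. The wild-type libraries lay close together, and the lowest *Ahr*-/- library was still clearly above them. Its log2 fold change was 1.21 (standard error 0.14, 95% interval 0.90 to 1.52, adjusted p = 6.02e-05), the change with the smallest standard error among the 6 that rose.

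The inflammatory ligands *Ccl3*, *Ccl4* and *Ccl5* did not move together. *Ccl3*, which encodes MIP-1α, had 539, 547 and 509 normalized counts in wild-type and 463, 416 and 304 in *Ahr*-/- libraries. The genotypes did not overlap, and replicate 3 was the lowest of the *Ahr*-/- libraries. The log2 fold change was −0.45 (standard error 0.12, 95% interval −0.71 to −0.19, adjusted p = 0.0186). Without *Ahr*+/+ replicate 1 it was −0.44 (adjusted p = 0.051) and without *Ahr*+/+ replicate 2 −0.43 (adjusted p = 0.069), so that the call was lost; without *Ahr*-/- replicate 3 it was −0.29 (adjusted p = 0.021). *Ccl4*, which encodes MIP-1β, had 645, 669 and 667 normalized counts in wild-type and 800 (replicate 1), 618 and 515 in *Ahr*-/- libraries. The *Ahr*-/- libraries spanned the wild-type values on both sides. Its log2 fold change was −0.06 (95% interval −0.32 to 0.19, adjusted p = 0.77), an interval that leaves room for a small change in either direction. *Ccl5*, which encodes RANTES, had 50.5, 105 and 80.9 normalized counts in wild-type and 285, 220 and 129 in *Ahr*-/- libraries. Its libraries varied within each genotype, with a ratio of highest to lowest of 2.07 and 2.22, yet did not overlap. This gave a log2 fold change of 1.39 (standard error 0.28, 95% interval 0.78 to 2.01, adjusted p = 0.0041), and edgeR's robust fit gave the same fold change with an adjusted p of 0.084.

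The CCR1 ligands of the chromosome 11 cluster both rose. *Ccl6* had 10.7, 14.1 and 14.6 normalized counts in wild-type and 61.8, 43.4 and 28.3 in *Ahr*-/- libraries. The lowest *Ahr*-/- library was well above the highest wild-type library. *Ccl6* thus had a log2 fold change of 1.70 (standard error 0.32, 95% interval 0.99 to 2.40, adjusted p = 0.0027). *Ccl9* had 63.1, 93.6 and 73.0 normalized counts in wild-type and 213, 215 and 110 in *Ahr*-/- libraries. Replicates 1 and 2 of the *Ahr*-/- genotype were alike and replicate 3 lay between them and the wild type. *Ccl9* had a log2 fold change of 1.22 (standard error 0.24, 95% interval 0.69 to 1.74, adjusted p = 0.0037).

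Of the 3 CXC genes among the 10, *Cxcl16* alone changed. It had 82.6, 80.5 and 80.9 normalized counts in wild-type and 178, 150.0 and 109 in *Ahr*-/- libraries. The wild-type libraries agreed to within a few counts, and all *Ahr*-/- libraries were higher. The log2 fold change was 0.81 (standard error 0.18, 95% interval 0.43 to 1.20, adjusted p = 0.0060). *Cxcl10* had 20.4, 31.2 and 29.2 normalized counts in wild-type and 42.9, 29.1 and 17.3 in *Ahr*-/- libraries. The *Ahr*-/- libraries again lay on both sides of the wild type, and the log2 fold change of 0.07 had a 95% interval from −0.63 to 0.77 (adjusted p = 0.91), so that a change within this interval was not detectable at this depth and spread. *Cxcl9* had 0, 0 and 1 raw counts in *Ahr*+/+ and 0, 3 and 1 in *Ahr*-/- libraries, at or under the floor of 3 counts in every library, and no fold is given.

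**Figure D2:**
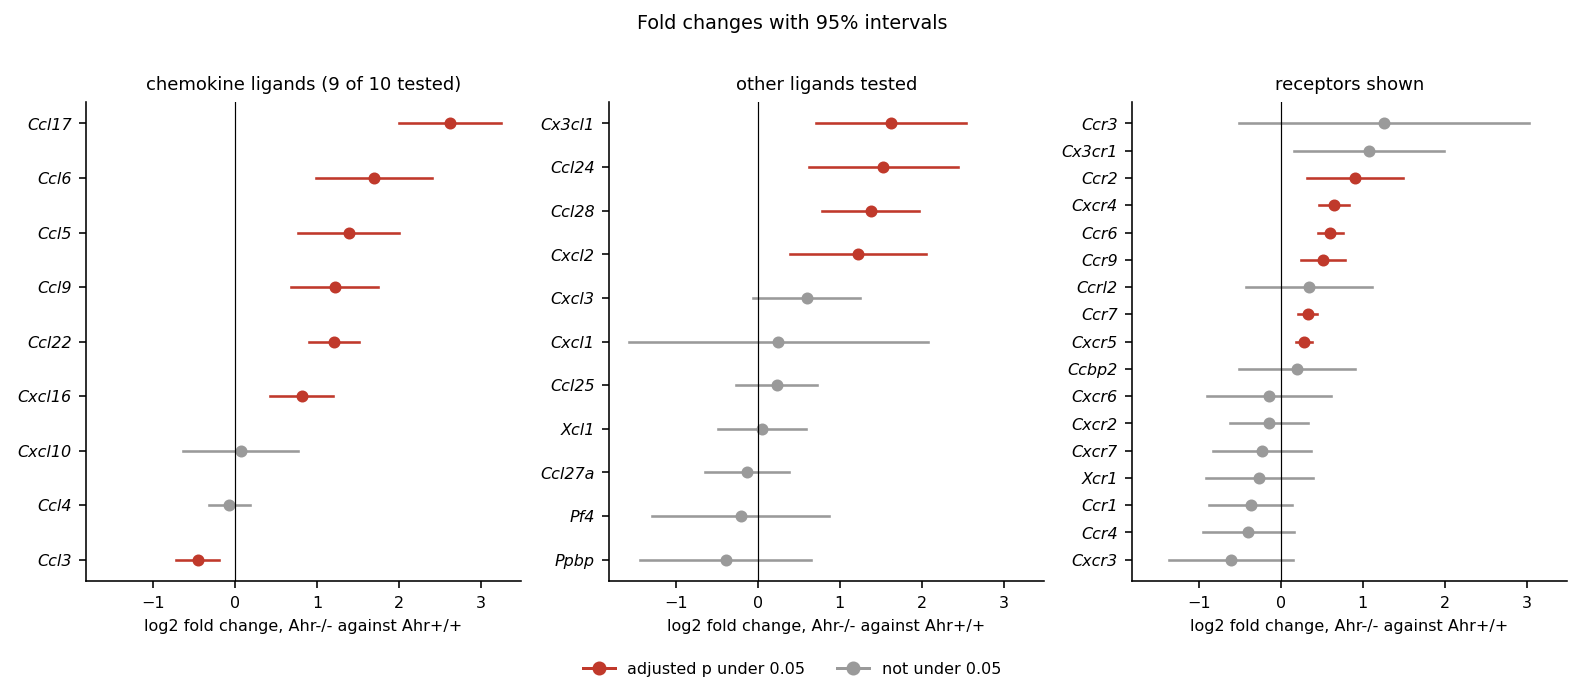
Log2 fold change of *Ahr*-/- against *Ahr*+/+ (x axis) with its 95% interval for the 9 chemokine ligands tested, the 11 other ligands tested and all but 1 of the receptors tested, in red where the adjusted p-value was under 0.05. *Ccl17* stands at 2.62 and *Ccl3* at −0.45 on the left, and *Ccr2* at 0.91 is the highest receptor in red; *Ccbp2* and *Cxcr7* are older symbols of *Ackr2* and *Ackr3*.

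The *Ahr*-/- libraries differed among themselves in a recurring order. Replicate 3 was the lowest *Ahr*-/- library for all 9 tested ligands, and replicate 1 was the highest for 7 of the 9. Among *Ahr*+/+ libraries replicate 1 was the lowest for 6 of the 9. With both of these low libraries left out, an alternative chosen after the values were seen, 7 of the 9 ligands again changed, among them *Ccl3* (log2 fold change −0.29, adjusted p = 0.028), *Ccl17* (2.90, adjusted p = 1.5e-06) and *Cxcl16* (0.99, adjusted p = 0.00013).

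Per length, the level of the 10 genes was dominated by 3 of them. Dividing CPM by the length of all annotated exons gave, in *Ahr*+/+ libraries, 26.0 ± 0.53 CPM per kb for *Ccl4*, 18.1 ± 0.69 for *Ccl3* and 9.09 ± 0.36 for *Ccl22* (SD, n = 3). These 3 did not overlap with one another or with *Ccl5* at 2.13 ± 0.74. *Cxcl16* (0.70 ± 0.0095), *Ccl9* (0.65 ± 0.13) and *Ccl17* (0.42 ± 0.099) followed, *Cxcl16* and *Ccl9* overlapping with each other and *Ccl17* with *Cxcl10* (0.31 ± 0.066). *Ccl6* was at 0.19 ± 0.031 and *Cxcl9* had almost no reads. In *Ahr*-/- libraries *Ccl22*, at 21.1 ± 5.15 CPM per kb, overlapped with *Ccl4* at 25.4 ± 5.68 and with *Ccl3* at 13.4 ± 2.79. *Ccl17* moved from the seventh to the fifth place, at 2.63 ± 0.44. Lengths differ between annotations, so the order between genes of similar level depends on the lengths used.

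The summed per-length level of the 10 genes was 56.0, 59.7 and 57.1 CPM per kb in *Ahr*+/+ and 86.2, 75.9 and 53.9 in *Ahr*-/- libraries. The totals of the genotypes overlapped, because *Ahr*-/- replicate 3 lay below all wild-type libraries. The composition of this total did not overlap for its main parts. *Ccl3* made up 32.7%, 31.2% and 30.3% in *Ahr*+/+ and 18.3%, 18.6% and 19.1% in *Ahr*-/- libraries. *Ccl4* made up 44.2% to 46.1% against 32.1% to 37.7%. *Ccl22* made up 15.7%, 15.9% and 15.7% against 27.3%, 32.3% and 28.1%. *Ccl17* went from between 0.51% and 0.88% to between 3.43% and 3.94%. In these shares *Ahr*-/- replicate 3 did not stand apart from the other *Ahr*-/- libraries for *Ccl3* or *Ccl22*. Shares sum to a fixed total, so a higher share of *Ccl22* lowers the others by construction.

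**Figure D3:**
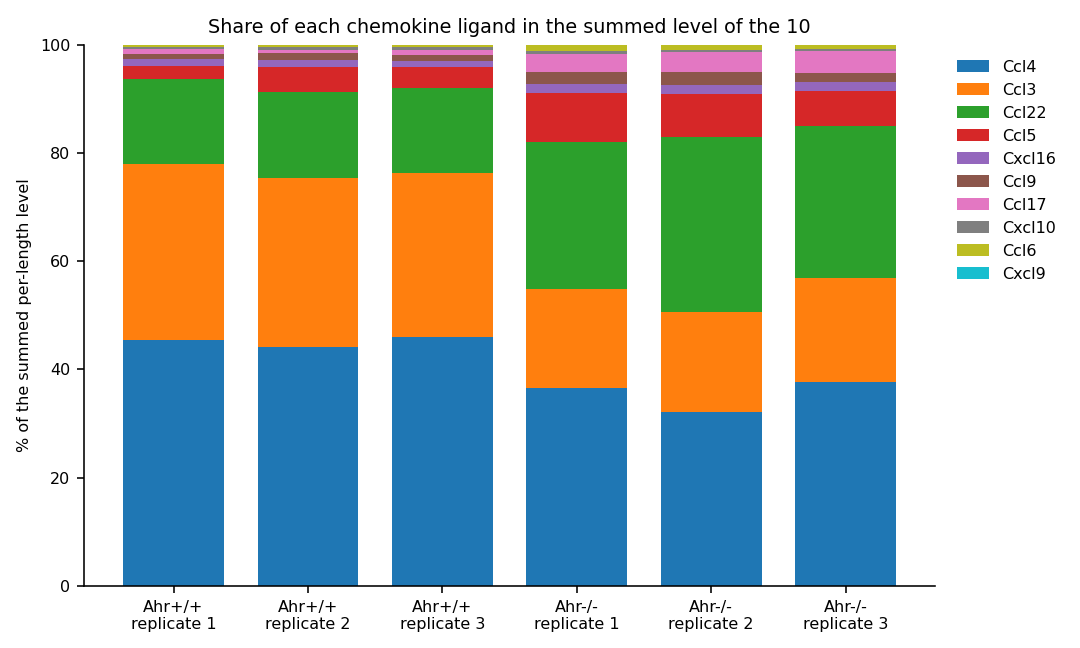
Share of each of the 10 chemokine ligands in their summed level per length (y axis, %) in each of the 6 libraries (x axis). *Ccl3* takes 30.3% to 32.7% in the *Ahr*+/+ libraries and 18.3% to 19.1% in the *Ahr*-/- libraries, and *Ccl22* 15.7% to 15.9% and 27.3% to 32.3%.

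Ratios of paired ligands were compared within libraries, since such a ratio does not depend on depth. The count of *Ccl3* per count of *Ccl4* was 0.84, 0.82 and 0.76 in *Ahr*+/+ and 0.58, 0.67 and 0.59 in *Ahr*-/- libraries. The log2 ratio was −0.31 ± 0.069 against −0.71 ± 0.12 (SD, n = 3), a difference of −0.39 without overlap. The log2 ratio of *Ccl17* to *Ccl22* was −6.65 ± 0.42 in *Ahr*+/+ and −5.16 ± 0.15 in *Ahr*-/- libraries. By these raw counts *Ccl17* thus rose by 1.49 more than *Ccl22* on the log2 scale. The *Ahr*+/+ libraries had only 10, 6 and 8 raw counts of *Ccl17*, and with 1 count added to each gene the difference was 1.34. The log2 ratio of *Ccl6* to *Ccl9* was −2.54 ± 0.21 against −2.02 ± 0.27, a difference of 0.52. The count of *Ccl6* per count of *Ccl9* was 0.17, 0.15 and 0.200 in wild-type and 0.29, 0.201 and 0.26 in *Ahr*-/- libraries, so that the nearest libraries all but met, and with 1 count added to each gene they overlapped (0.212 against 0.204). For the pair of *Cxcl9* and *Cxcl10* no ratio could be formed in the 3 libraries without *Cxcl9* reads. The 2-sided exact permutation p was 0.1 for each of the 3 pairs and 0.1 after adjustment over them, the smallest value this design allows.

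Of 30 other chemokine ligands, 11 had enough counts for a test, and 4 of these were higher and none lower in *Ahr*-/- libraries. Among all genes tested 9.79% were higher and 8.13% lower. At an unadjusted p-value under 0.05, 0 of the 11 were lower in edgeR, and DESeq2 also called 0 lower. The median log2 fold change was 0.25 over the 11. *Ccl28*, a mucosal chemokine that binds CCR10 and CCR3, had 12.6, 11.1 and 19.1 normalized counts in wild-type and 37.8, 39.8 and 32.8 in *Ahr*-/- libraries (log2 fold change 1.38, standard error 0.27, adjusted p = 0.0033). *Cx3cl1*, the membrane-bound fractalkine, had between 2.91 and 5.03 against between 10.0 and 15.4 normalized counts (log2 fold change 1.63, adjusted p = 0.017). *Ccl24*, an eosinophil chemokine, had 28.2, 32.2 and 27.0 against 87.5, 132 and 31.0, so that *Ahr*-/- replicate 3 lay within the wild-type range (log2 fold change 1.53, adjusted p = 0.022). *Cxcl2*, a neutrophil chemokine, had 9.71, 31.2 and 18.0 against 60.1, 52.6 and 28.3, with overlap between genotypes (log2 fold change 1.22, adjusted p = 0.043). The number that changed fell to 1 without *Ahr*+/+ replicate 1 or without *Ahr*-/- replicate 2 and to 2 without *Ahr*+/+ replicate 3. The other 19 ligands had at most 5 counts over the 6 libraries, and 9 of them, including the CCR6 ligand *Ccl20* and the CCR7 ligand *Ccl21a*, had none.

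Of 23 chemokine receptors, 18 were tested, of which 6 were higher and 1 lower in *Ahr*-/- libraries, with a median log2 fold change of 0.24. Among all genes tested 9.79% were higher and 8.13% lower. The receptors of 7 of the 10 ligands were low and did not pass the test. *Ccr1*, bound by CCL6 and CCL9, had a log2 fold change of −0.36 (95% interval −0.87 to 0.14, adjusted p = 0.34). *Ccr4*, bound by CCL17 and CCL22, had 35.5 ± 9.63 against 26.9 ± 2.54 normalized counts and a log2 fold change of −0.40 (95% interval −0.95 to 0.16, adjusted p = 0.34). *Cxcr3* had −0.60 (95% interval −1.35 to 0.15, adjusted p = 0.28) and *Cxcr6* −0.14 (95% interval −0.90 to 0.62, adjusted p = 0.83). The receptors that rose were those by which B cells are known to home, *Ccr6*, *Ccr7*, *Cxcr4* and *Cxcr5*, together with *Ccr2* and *Ccr9*. *Ccr6* rose from 1803 ± 190 to 2756 ± 202 normalized counts (log2 fold change 0.61) and *Cxcr4* from 4039 ± 185 to 6334 ± 990 (log2 fold change 0.65). *Ccr2*, a monocyte receptor, rose from 58.7 ± 18.3 to 110 ± 33.5 (log2 fold change 0.91, adjusted p = 0.034).

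Genes known to respond to interferon-γ, which was not added to the cultures, to IL-4 or to BCR engagement, and genes that act on chemokines, were compared list by list. The same test called 17.9% of all genes tested, 9.79% as higher and 8.13% as lower. Of 18 interferon-γ-responsive genes, 2 were higher and 1 lower, with a median log2 fold change of −0.0082. The higher ones were *Gbp3*, a guanylate-binding protein (0.86, adjusted p = 0.0085), and the receptor subunit *Ifngr2* (0.23, adjusted p = 0.0015). The lower one, named after its values were seen, was *Ido1*, with at most 7.86 normalized counts in any library. Of 10 IL-4-responsive genes, 4 were higher and 1 lower, with a median of 0.30. *Mrc1* (1.78, adjusted p = 0.032), which is known from alternatively activated macrophages, had at most 28.4 normalized counts in any library. *Fcer2a*, the B-cell IgE receptor CD23, rose from 17712 ± 1850 to 21896 ± 1655 (0.31, adjusted p = 0.0076), and *Cish*, a STAT feedback inhibitor, fell from 9935 ± 428 to 7862 ± 148 (−0.34). Of 12 early genes of BCR and NF-κB signalling, 3 were higher and 5 lower, with a median of −0.13. *Cd69* (−1.15), *Egr3* (−0.67) and *Egr2* (−0.49) fell. Of the genes in this list that encode regulators of NF-κB, *Tnfaip3* rose (0.48), while *Nfkbia* (−0.21, adjusted p = 0.0052) and *Nfkbid* (−0.20, adjusted p = 0.0051) fell. *Dpp4*, a protease that trims chemokines including CCL22 and CXCL10, rose from 290 ± 42.3 to 488 ± 91.3 normalized counts (log2 fold change 0.73, adjusted p = 0.0019). *Adam10* and *Adam17*, which release CXCL16 from the membrane, had log2 fold changes of 0.02 (95% interval −0.063 to 0.098) and −0.08 (95% interval −0.18 to 0.014) and did not pass the test.

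Because the purified cells were not all B cells, marker genes of other spleen cells were examined beside the ligands. For the marker counts that follow, the share over all genes tested was 17.9%, with 9.79% higher and 8.13% lower. B-cell markers dominated all libraries, with *Ms4a1*, which encodes CD20, at 11462 ± 235 and 13688 ± 776 normalized counts; 4 of the 7 B-cell markers were higher and 1 lower in *Ahr*-/- libraries. The summed B-cell markers ranged from 1881 to 1980 CPM in *Ahr*+/+ and from 2207 to 2312 CPM in *Ahr*-/- libraries. Of the 12 macrophage and monocyte markers, 1 was higher (*Cd14*, from 7.08 ± 3.86 to 24.7 ± 13.1 normalized counts, log2 fold change 1.64) and 1 lower (*Emr1*, −3.60), and the defining *Csf1r* (0.60, 95% interval −0.14 to 1.34) and *Lyz2* (0.73, 95% interval −0.28 to 1.74) did not pass the test. *Emr1* and *Cd68* made up 71.8% to 87.4% of the summed macrophage markers in *Ahr*+/+ and 39.3% to 65.5% in *Ahr*-/- libraries. Without these 2 genes, a trimming chosen after the values were seen, the summed level was 3.99, 11.3 and 7.39 CPM in *Ahr*+/+ and 11.7, 18.3 and 5.72 CPM in *Ahr*-/- libraries; over the whole list it ranged from 31.8 to 40.2 and from 16.6 to 30.2 CPM. *Ahr*+/+ replicate 1 and *Ahr*-/- replicate 3, the lowest libraries for most of the chemokine ligands, were also the lowest of their genotype for the summed markers of macrophages, neutrophils, conventional and plasmacytoid dendritic cells, NK cells, and basophils and mast cells, but not for those of B cells or T cells. For platelet markers this held for *Ahr*+/+ replicate 1 but not for *Ahr*-/- replicate 3. Within the plasmacytoid dendritic cell list the lowest library differed between markers. *Bst2*, a large part of its sum, was lowest in *Ahr*+/+ replicate 1 (1930 normalized counts) and *Ahr*-/- replicate 3 (1975). *Siglech* was lowest in replicate 2 of both genotypes, at 52.3 and 236. In the conventional dendritic cell sum *Ahr*-/- replicate 3 lay just below replicate 1 (26.4 against 27.5 CPM). The part of these cells in the chemokine differences was not tested.

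Of the 9 conventional dendritic cell markers, 5 were higher and 1 lower. *Cd209a* rose from 6.50 ± 1.35 to 36.5 ± 8.69 normalized counts (log2 fold change 2.52), and *Clec9a* (1.86), *Clec10a* (1.83) and *Itgax* (1.06) also rose, as did *Fscn1* (0.97). The marker that fell was *Zbtb46*, a transcription factor of conventional dendritic cells and the most abundant gene of the list, from 552 ± 23.9 to 418 ± 23.2 normalized counts (log2 fold change −0.40, adjusted p = 0.0014). *Flt3* had −0.20 (95% interval −0.50 to 0.11), *Xcr1* −0.26 (95% interval −0.91 to 0.39) and *Batf3* 0.75 (95% interval −0.20 to 1.69), and none of these 3 passed the test. Their sum ranged from 23.4 to 26.5 CPM in *Ahr*+/+ and from 26.4 to 33.3 CPM in *Ahr*-/- libraries. Of the 9 plasmacytoid dendritic cell markers, 8 were higher and 0 lower (also 0 at an unadjusted p-value under 0.05 and 0 by DESeq2), *Siglech* rising from 56.8 ± 4.19 to 270 ± 32.3 normalized counts (log2 fold change 2.23), with summed levels of 133 to 155 and 223 to 268 CPM. *Bst2*, with 0.22 (95% interval −0.032 to 0.47), did not pass. *Bst2*, *Ly6d* and *Pacsin1*, at 2127 ± 205, 1654 ± 137 and 1248 ± 93.8 normalized counts in *Ahr*+/+ libraries, made up most of this sum. Of the 8 T-cell markers, *Cd3e* alone changed and was lower (−1.26), and the sum ranged from 157 to 167 and from 157 to 180 CPM, most of it *Lck*. Of the 6 NK-cell markers, *Ncr1* (0.98) and *Klrb1c* (0.92) were higher, with sums of 5.99 to 8.64 and 7.59 to 11.9 CPM. Of the 6 basophil and mast cell markers, *Cpa3* was higher (from 13.7 ± 2.23 to 39.1 ± 1.27 normalized counts) and the sums were 1.34 to 2.88 and 2.32 to 4.16 CPM. Of the 7 neutrophil markers in the table and the 4 platelet markers tested, 0 changed by edgeR or DESeq2, with 1 (*Retnlg*, named after its values were seen) and 0 at an unadjusted p-value under 0.05, and neutrophil sums ranged from 2.96 to 9.06 and from 3.39 to 13.04 CPM. Every summed list was above 0 in every library, and the part of these cells in the levels of the chemokine ligands was not tested.

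**Figure D4:**
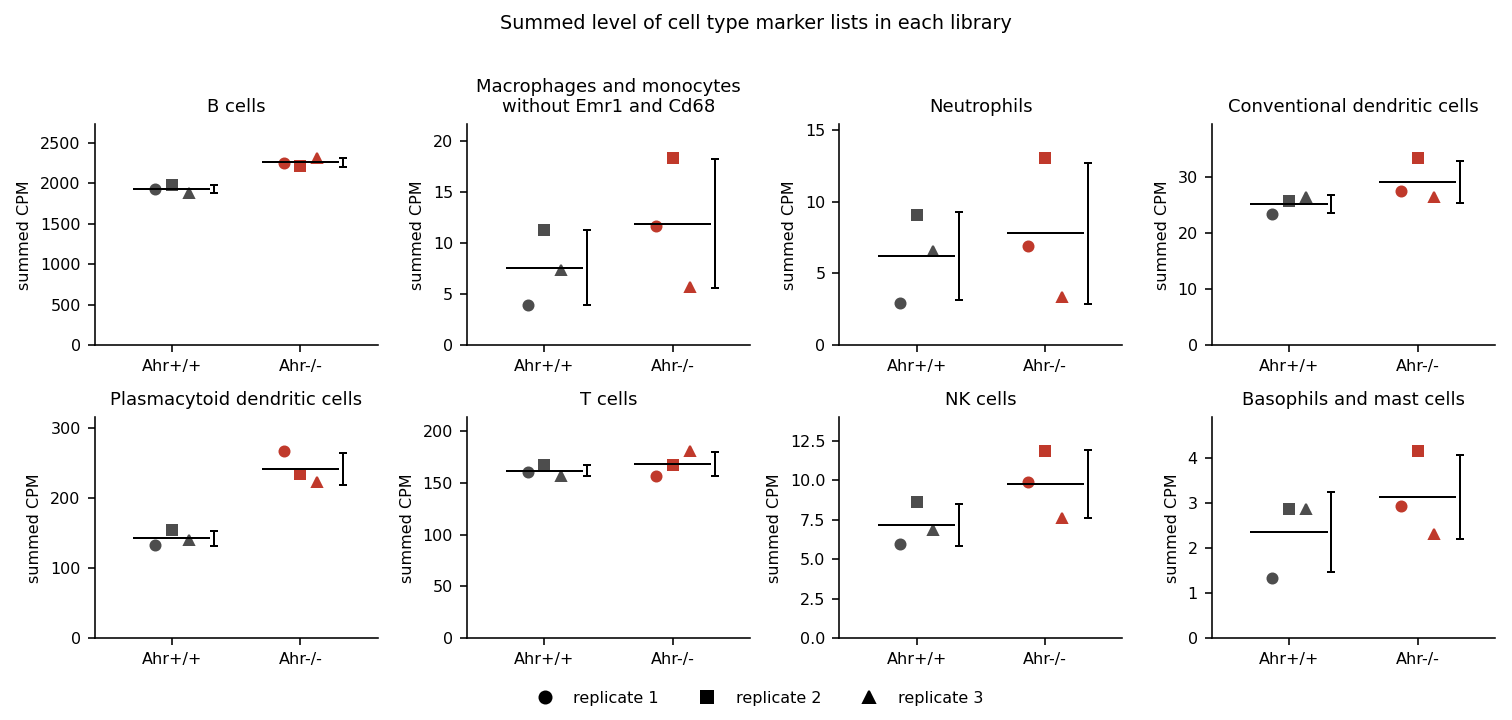
Summed CPM of the marker genes of 8 cell types (y axis, linear from 0) in each library, grouped by genotype, with the marker shape giving the replicate, the line the mean and the bar the SD of 3 libraries; *Emr1* and *Cd68* are left out of the macrophage list. The *Ahr*-/- libraries lie above all *Ahr*+/+ libraries for plasmacytoid dendritic cell markers (223 to 268 against 133 to 155 CPM) and overlap with them for macrophage markers (5.72 to 18.3 against 3.99 to 11.3 CPM). Most of the plasmacytoid dendritic cell sum is *Bst2*, *Ly6d* and *Pacsin1*, and most of the T-cell sum is *Lck*.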

How the data were processed

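Gene-level read counts without normalization, as the authors deposited them, were used for 3 *Ahr*+/+ and 3 *Ahr*-/- libraries (TruSeq stranded mRNA kit). The submitters' processing notes name TopHat2 (version 2), HTSeq, DESeq and the mm10 build. Deposited normalized counts and a table of the authors' own comparison (fold changes and p-values) were not used. The counts were fitted by edgeR 4.0.16 under R 4.3.3 (quasi-likelihood fit, TMM, genotype as the only term, at least 10 counts in total, Benjamini-Hochberg adjustment over all genes tested, 95% intervals); DESeq2 1.42.0 was an alternative. The fit was tested on simulated data. Replicate libraries differed by more than sampling noise, so none was counted as a duplicate. The 10 ligands, all gene lists and the comparisons were chosen with earlier results of these data known. Genes named are the 10 ligands, their receptors, up to 4 changed genes per list whose mean reached 10 normalized counts, and leading cell type markers; other names are given as such. Older symbols were matched for 6 listed genes, and *Ly6g* had no match. Alternatives covered scaling, count filter, DESeq2, robust fit, replicate block, prior count, threshold and each library left out. A few genes counted in the lists, and 1 sequence, are not reported here by name.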

Additional observations from a re-analysis of the deposited data

How the results depend on the processing

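The number of the 10 ligands that changed was 7 under most alternatives and 6 at the lowest; leaving out 1 library at a time gave 6 to 7, and edgeR with the replicate block gave 7. Deviations of same-numbered libraries did not vary together in 1 direction (correlations −0.14, 0.24 and −0.18). With 3 libraries per genotype, each centred on its own mean, this cannot decide whether they were paired. The block changed no call among the ligands. The number of other ligands that changed, 4, moved to 1 at an adjusted p-value under 0.01 and to between 1 and 5 with 1 library left out; the cause was not tested. Receptors went from 7 to between 5 and 8 with 1 library left out and 9 with *Ahr*+/+ replicate 1 and *Ahr*-/- replicate 3 both left out. *Ccl3* was not called without *Ahr*+/+ replicate 1 (−0.44) or replicate 2 (−0.43), nor at 0.01. The *Ccl5* call was lost in the robust fit (adjusted p = 0.084). Of the ligands that were not called, *Ccl4* changed sign to 0.07 without *Ahr*-/- replicate 3 and to 0.04 with *Ahr*+/+ replicate 1 also left out, and *Cxcl10* to −0.10 without *Ahr*+/+ replicate 1 and −0.18 without *Ahr*-/- replicate 1; with 1 library left out they ranged from −0.21 to 0.07 and from −0.18 to 0.34. *Ccl17* kept a log2 fold change of 2.38 to 2.90 and *Ccl22* of 1.07 to 1.40. With 1 library left out, the log2 ratio differences ranged from −0.46 to −0.35 for *Ccl3* to *Ccl4*, from 1.25 to 1.64 for *Ccl17* to *Ccl22* and from 0.40 to 0.66 for *Ccl6* to *Ccl9*. The depth limits *Cxcl9*, *Ccl6*, *Ccl17* and *Cxcl10* most.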
